A study of Homo sapiens with 12 samples.

Results

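The oxidative phosphorylation system was followed in human neural progenitor cells (NPCs) through the messenger RNAs of its subunits, 94 of the 58302 genes counted. Membership was set by gene symbol among protein-coding genes: the 13 whose symbols begin with MT-, which are encoded by mitochondrial DNA (mtDNA), and 81 nuclear genes of the NDUFA, NDUFB, NDUFC, NDUFS and NDUFV series, SDHA to SDHD, the UQCR genes, the COX4 to COX8 subunits and the ATP5F1 and ATP5M genes. By complex, the nuclear members divide into 37 for complex I, 4 for complex II, 9 for complex III, 17 for complex IV and 14 for complex V, and the mtDNA members into 7, 0, 1, 3 and 2. The cells derive from H1, a human embryonic stem cell line, and RNA-seq was done on 2 samples in each of 6 groups. Wild-type (WT) and double-knockout (dKO) NPCs were sampled early, at passage 2 by the study's methods although the labels give no passage, and again at passage 4 (P4). WT and dKO cells were also sampled at day 28 (D28) of what the study calls spontaneous differentiation. By its methods NPCs were grown with bFGF and EGF. For differentiation they were plated on Matrigel and kept without these factors, with GDNF, BDNF and cAMP added. The dKO cells carry deletions in the catalytic region of the H3K27 demethylases UTX (KDM6A) and JMJD3 (KDM6B), made in the stem cells by genome editing and drug selection of clones. Neither the number of clones behind the samples nor the relation between replicates is given in the sources used here, so p-values measure only the spread between these samples, which may be technical. The labels name no batch, and any batch that follows the groups cannot be told apart from them.

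The respiratory chain moves electrons from NADH and succinate through complexes I to IV to oxygen, and the proton gradient it builds drives ATP synthase, complex V. Complex II is wholly nuclear, whereas complexes I, III, IV and V each combine subunits made in the cytosol from nuclear mRNAs with hydrophobic core subunits translated inside the mitochondrion from mtDNA. The mtDNA is transcribed as long polycistronic RNAs from each strand and cut at the tRNAs, and all its protein-coding genes but MT-ND6 lie on the same strand. The nuclear genes are transcribed separately, and factors such as NRF1 and the ETS factor GABPA are known to bind many of their promoters. Neural progenitors are known for relying strongly on glycolysis, and neurons on oxidative phosphorylation.

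Promoters of 3 nuclear members that are described below are shown because their genes had firm calls in opposite directions: ATP5F1E and NDUFA9, which were lower in dKO-D28 than in WT-D28 cells, and ATP5MC2, which was higher. The sequences are RefSeq promoters on GRCh38.p14, 250 bases before to 50 bases after the start, printed 5′ to 3′ on the gene's strand, with matches to the NRF1 core GCGCATGC or the ETS core CCGGAAG on either strand in capitals.
ATP5F1E, chr20:59032286-59032585, minus strand: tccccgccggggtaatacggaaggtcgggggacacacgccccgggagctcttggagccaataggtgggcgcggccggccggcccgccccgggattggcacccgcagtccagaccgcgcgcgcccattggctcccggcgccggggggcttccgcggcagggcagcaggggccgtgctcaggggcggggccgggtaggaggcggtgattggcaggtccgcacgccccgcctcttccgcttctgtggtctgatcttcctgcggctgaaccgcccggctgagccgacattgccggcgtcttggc
NDUFA9, chr12:4648864-4649163, plus strand: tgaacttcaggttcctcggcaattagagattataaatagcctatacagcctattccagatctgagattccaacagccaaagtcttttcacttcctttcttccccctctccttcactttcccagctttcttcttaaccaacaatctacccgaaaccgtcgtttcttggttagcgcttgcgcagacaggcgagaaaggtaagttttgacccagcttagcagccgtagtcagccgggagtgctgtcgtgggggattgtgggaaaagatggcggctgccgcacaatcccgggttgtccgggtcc
ATP5MC2, chr12:53676034-53676333, minus strand: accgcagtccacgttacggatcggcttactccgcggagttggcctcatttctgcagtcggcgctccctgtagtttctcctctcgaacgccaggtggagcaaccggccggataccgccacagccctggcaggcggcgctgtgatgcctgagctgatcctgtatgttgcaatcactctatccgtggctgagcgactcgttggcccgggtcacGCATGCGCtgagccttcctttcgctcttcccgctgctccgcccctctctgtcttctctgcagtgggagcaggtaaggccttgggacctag
This ATP5MC2 promoter held the NRF1 core, on the other strand and 40 bases before the start, as did 1 of the other 2 promoters listed for that gene, while neither core was found in the windows of ATP5F1E and NDUFA9. Of the 81 nuclear members, 64 had a promoter in the RefSeq table, with 76 promoters in all. The NRF1 core was found in 14 of them (18.4%), against 3.05% of all 35116 promoters, and the ETS core in 19 (25.0%), against 10.3%. Both cores stood in 5 member promoters (6.58%), against 0.584% of all. The 2 cores can share at most a single end base, and matches on both strands, which may overlap for the NRF1 core, count as 1 promoter. A match is a description of letters and was not tied to any factor's binding here.

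Counts per sample totalled between 756942 and 10601172. The 4 samples of early NPCs had the lowest totals (756942 to 1438807), so 3 counts correspond to between 2.12 and 3.92 counts per 1e+06 counts (CPM) there and to at most 1.00 CPM in the other samples, counting error only. Both knocked-out genes were still counted in dKO samples, KDM6B at 146 to 188 CPM and KDM6A at 27.7 to 59.4 CPM, against 117 to 205 and 44.3 to 61.4 CPM in WT samples. Reads outside the deleted part cannot check the deletion, and KDM6A in dKO-D28 replicate 1, at 59.4 CPM, lay within the WT range. Over all genes the chi-square between replicates, divided by its degrees of freedom, was highest in dKO-D28 cells (11.3), against 1.57 to 2.72 elsewhere. Over the members alone this value was highest in WT-D28 (54.6), followed by dKO-D28 (41.6), WT P4 (27) and dKO P4 samples (8.88). In early WT and dKO NPCs the value over the members was 1.66 and 3.25. These values come from raw counts and grow with depth, so they do not rank the groups by agreement. The median absolute log2 difference of the tested members between replicates was lowest in WT-D28 (0.0813) and highest in WT P4 samples (0.268). All 8 neural progenitor markers were counted (3380 to 7550 CPM in sum), but the sum of 8 neuronal markers was 3410 and 3400 CPM in WT-D28 and 959 and 530 CPM in dKO-D28 cells, and it was 4340 and 4880 CPM in WT NPCs at P4, above the 868 to 1210 CPM of early NPCs. These are bulk samples, so fewer cells of a type and less RNA per cell cannot be told apart.

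The first comparison was between the 2 genomes within each sample. The mtDNA members took 1.56% ± 0.011 of all counts in early WT NPCs (SD, n = 2 here and below) and 1.497% ± 0.038 in early dKO NPCs. The share was 4.10% ± 0.55 for WT-D28 and 3.93% ± 0.92 for dKO-D28, and 3.48% ± 0.35 and 3.10% ± 0.021 in WT and dKO NPCs at P4. By sample, early NPCs gave 1.56% and 1.55% (WT) and 1.47% and 1.52% (dKO), D28 cells 3.71% and 4.49% (WT) and 3.28% and 4.59% (dKO), and P4 NPCs 3.23% and 3.72% (WT) and 3.11% and 3.08% (dKO). All 4 early NPC samples thus lay below all 8 later samples. The genotypes overlapped at D28, while in early and P4 NPCs both dKO samples lay slightly below both WT samples. The 81 nuclear members took 0.464% and 0.476% in early WT NPCs and 0.481% and 0.493% in early dKO NPCs. Their share was 0.507% and 0.4996% for WT-D28, 0.470% and 0.451% for dKO-D28, 0.606% and 0.508% in WT P4 and 0.596% and 0.526% in dKO P4 NPCs. The nuclear share therefore varied over a far narrower range, and its lowest value came from dKO-D28 cells rather than from early NPCs.

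**Figure D1:**
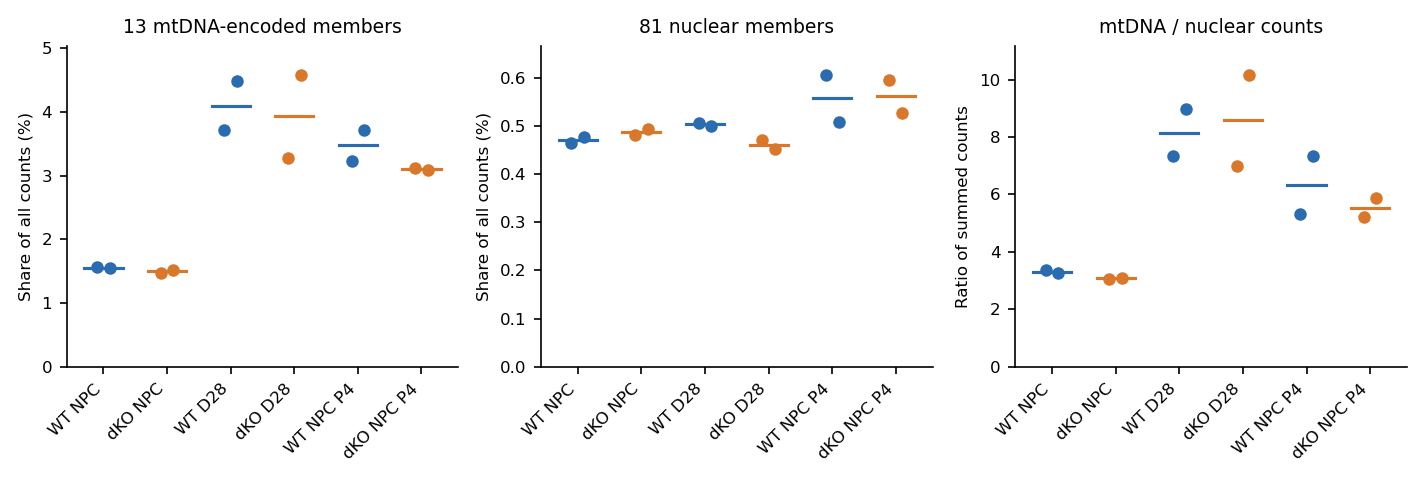
Share of all counts held by the 13 mtDNA-encoded members (left) and the 81 nuclear members (middle), in percent, and the ratio of their summed counts (right), for WT (blue) and dKO (orange) samples. Points are samples and lines are group means. The ratio lies between 3.06 and 3.37 in early NPCs and between 5.22 and 10.2 in all other samples.

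Counts from mtDNA exceeded those from the nuclear members 3.37- and 3.25-fold in early WT NPCs and 3.06- and 3.09-fold in early dKO NPCs. The ratio was 7.33 and 8.98 for WT-D28, 6.99 and 10.2 for dKO-D28, 5.33 and 7.33 in WT P4 NPCs and 5.22 and 5.86 in dKO P4 NPCs. From early NPCs to D28 it rose 2.45-fold in WT (a log2 difference of 1.29 ± 0.21, SD of the difference) and 2.74-fold in dKO cells (1.46 ± 0.38), and from early to P4 NPCs 1.89-fold in WT (0.92 ± 0.33) and 1.80-fold in dKO (0.85 ± 0.12). None of these 4 pairs of groups overlapped, but with 2 samples a group an exact permutation test cannot go below p = 0.333. The dKO against WT differences were smaller: -0.11 ± 0.039 in early NPCs, without overlap, -0.18 ± 0.35 at P4 and 0.06 ± 0.44 at D28, both with overlap. The last 2 had no stable sign, since the P4 value was 0.05 without WT P4 replicate 2 and -0.41 without WT P4 replicate 1, and the D28 value was 0.33 without dKO-D28 replicate 1 and -0.22 without dKO-D28 replicate 2. When each genome was summarised by its median member instead of by its sum, the log2 differences fell to 0.58 (WT D28), 0.27 (WT P4) and 0.44 (dKO P4). The dKO D28 difference stayed within 1 SD (0.38) of its value from sums (1.46). Other mitochondrial RNA and depth moved with the ratio: the mtDNA ribosomal RNAs took 0.181% to 0.223% of counts in early NPCs and 0.462% to 0.673% in the later samples, 404 nuclear pseudogenes of mtDNA took 0.0200% to 0.0324% and 0.0474% to 0.0627%, and the early NPCs had the lowest totals. Their part in the ratio was not tested. Between early NPCs and D28 cells, stage, medium, depth and any batch cannot be told apart. Early and P4 NPCs share a medium by the study's methods, and there passage, depth and any batch cannot be told apart.

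The order of the mtDNA members per length differed between stages. On a scale of counts per kilobase of canonical transcript scaled to the same sum in every sample, the 3 subunits of cytochrome c oxidase (complex IV) had the highest group means in WT-D28, dKO-D28, WT P4 and dKO P4 samples, for example 20600 for MT-CO1, 13700 for MT-CO2 and 11800 for MT-CO3 in WT-D28 cells. In early WT NPCs MT-CO2 (6100) was followed by MT-ATP8 (5170), MT-CO1 (4980), MT-ND4 (4410) and MT-CO3 (4330), and in early dKO NPCs MT-ATP8 (4780) also lay above MT-CO3 (4680). MT-ND6 was the lowest in early NPCs (1700 in WT and 1260 in dKO), but at D28 it stood at 4450 in WT, above MT-ND1 (3890) and MT-ND3 (4020), and at 4230 in dKO, above MT-ND3 (3390). In each sample the lowest mtDNA member lay above the highest nuclear member. The nuclear members with the highest level averaged over the 12 samples were ATP5F1B (669), ATP5MC2 (639) and NDUFS5 (585), which encode the catalytic beta subunit and a c-ring subunit of ATP synthase and an accessory subunit of complex I. MT-ND6, the only member on the opposite mtDNA strand, lies at chrM:14149-14673, directly beyond MT-ND5 (chrM:12337-14148), and its counts cannot be told from antisense RNA because the library kit does not mark strand. MT-ATP8 (chrM:8366-8572) shares 22.2% of its bases with MT-ATP6 (chrM:8527-9207), so the counts of that pair are less certain than those of the other members. Of the nuclear members, 45 have pseudogenes named after them (174 in all), and 2, NDUFS7 and ATP5ME, share 51.5% and 61.3% of their exonic bases with genes on the other strand.

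The make-up of the mtDNA messages also shifted. MT-CO1, the catalytic subunit of complex IV (chrM:5904-7445), made up 19.7% and 19.3% of the counts of the 13 members in early WT NPCs and 19.2% and 22.4% in early dKO NPCs. It made up 29.9% and 34.5% in WT-D28, 23.6% and 25.5% in dKO-D28, 31.9% and 31.1% in WT P4 and 26.3% and 24.1% in dKO P4 samples. Its share was thus lowest in early NPCs, and at D28 and at P4 both dKO samples lay below both WT samples. MT-ATP8, a small membrane subunit of ATP synthase, went from 2.34% to 3.09% in early NPCs to 1.21% to 2.09% in the later samples, and MT-ND3, a core membrane subunit of complex I, from 1.64% to 2.58% to 1.05% to 1.60%. MT-ND4L, another short complex I message, showed no such separation (2.53% to 3.18% and 2.30% to 3.46%).

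Differentiation was examined next, D28 against early NPCs in each genotype, for the 82 members with a mean of at least 20 counts (all 13 of mtDNA and 69 of 81 nuclear). A gene was called at a Benjamini-Hochberg adjusted p below 0.05 in edgeR's quasi-likelihood test over 13454 genes, without a fold minimum. In WT cells 12 of 13 mtDNA members rose and 0 fell, with a median log2 fold change of 1.36, while 22 of 69 nuclear members rose and 3 fell, with a median of 0.26. Over all genes tested 23.2% were called higher and 22.9% lower, with a median of 0.04. In dKO cells all 13 mtDNA members rose, with a median of 1.37, whereas only 1 nuclear member rose and 3 fell, with a median of -0.10, against a background of 4.30% higher and 5.25% lower and a median of 0.01. The total of 37 members in WT fell to 23 without WT NPC replicate 2, and that of 17 in dKO to 10 and 9 without dKO NPC replicate 1 and 2. The WT and dKO comparisons have no samples in common, and the difference between them is tested below.

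**Figure D2:**
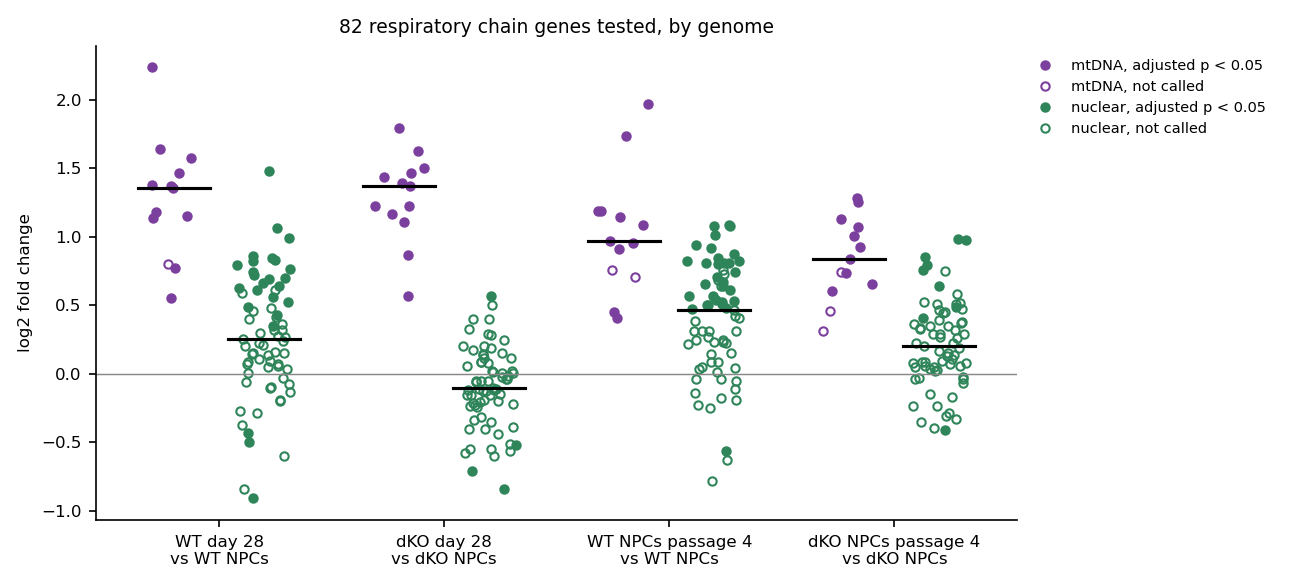
Log2 fold change of the 82 members tested, for D28 and P4 samples against early NPCs of the same genotype, with mtDNA members in purple and nuclear members in green. Filled points passed an adjusted p below 0.05 (edgeR), open points did not, and black lines are medians. The mtDNA medians lie between 0.84 and 1.37 and the nuclear medians between -0.10 and 0.46.

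MT-CO1 had the largest rise of the mtDNA members in WT cells, from 3040 and 2960 CPM in early NPCs to 11700 and 16500 CPM at D28 (log2 fold change 2.24 ± 0.22, SE, edgeR adjusted p = 1.53e-05). In dKO cells it went from 2840 and 3480 to 7670 and 11800 CPM (1.62, adjusted p = 0.000819). The D28 samples of both genotypes lay clear of the early ones. MT-ND6, a complex I subunit, rose from 343 and 356 to 997 and 1080 CPM in WT and from 275 and 260 to 853 and 999 CPM in dKO cells, the largest dKO rise (1.79, adjusted p = 1.16e-06). MT-CO3 rose from 1320 and 1340 to 3840 and 4410 CPM in WT cells (1.64 ± 0.12, adjusted p = 3.3e-08) and from 1410 and 1560 to 3370 and 4300 CPM in dKO cells. MT-CO2, the cytochrome c docking subunit, went from 1640 and 1610 to 3850 and 4510 CPM in WT and from 1620 and 1770 to 3500 and 4410 CPM in dKO cells. For these 3 subunits of complex IV no D28 sample overlapped an early one.

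Of the other complex I messages, MT-ND4 rose from 2290 and 2450 to 5130 and 5430 CPM in WT and from 2300 and 2000 to 4540 and 6750 CPM in dKO cells. MT-ND5 rose from 1570 and 1560 to 3340 and 3550 CPM in WT and from 1370 and 1250 to 3280 and 4140 CPM in dKO cells. MT-ND4L rose from 491 and 388 to 1090 and 1180 CPM in WT and from 396 and 395 to 1080 and 1060 CPM in dKO cells. These increases exceeded 2-fold in both genotypes. MT-ND2 went from 816 and 767 to 1580 and 2500 CPM in WT and from 752 and 933 to 1440 and 2330 CPM in dKO cells. MT-ND3 went from 398 and 329 to 629 and 608 CPM in WT and from 283 and 255 to 478 and 501 CPM in dKO cells. MT-ND1 was the mtDNA member not called in WT (954 and 939 to 1560 and 1750 CPM, adjusted p = 0.0604), and it was called in dKO cells (842 and 833 to 1570 and 3050 CPM, adjusted p = 0.0217), where the 2 D28 samples lay far apart. MT-CYB, the cytochrome b of complex III, rose from 1440 and 1460 to 3220 and 3330 CPM in WT and from 1470 and 1380 to 2370 and 3760 CPM in dKO cells. MT-ATP6, the proton channel subunit of ATP synthase, rose from 663 and 813 to 1700 and 2390 CPM in WT and from 802 and 1010 to 1700 and 2520 CPM in dKO cells. MT-ATP8 rose least (476 and 359 to 584 and 634 CPM in WT, 405 and 395 to 625 and 560 CPM in dKO). Some of these calls rested on a single library: MT-ATP8 in WT was lost without WT NPC replicate 2 (adjusted p = 0.069), and MT-ND1, MT-ND2, MT-CYB and MT-ATP8 in dKO were lost without dKO NPC replicate 1 or 2 (adjusted p between 0.0713 and 0.139), MT-ND2 also without dKO-D28 replicate 2 (0.101).

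**Figure D3:**
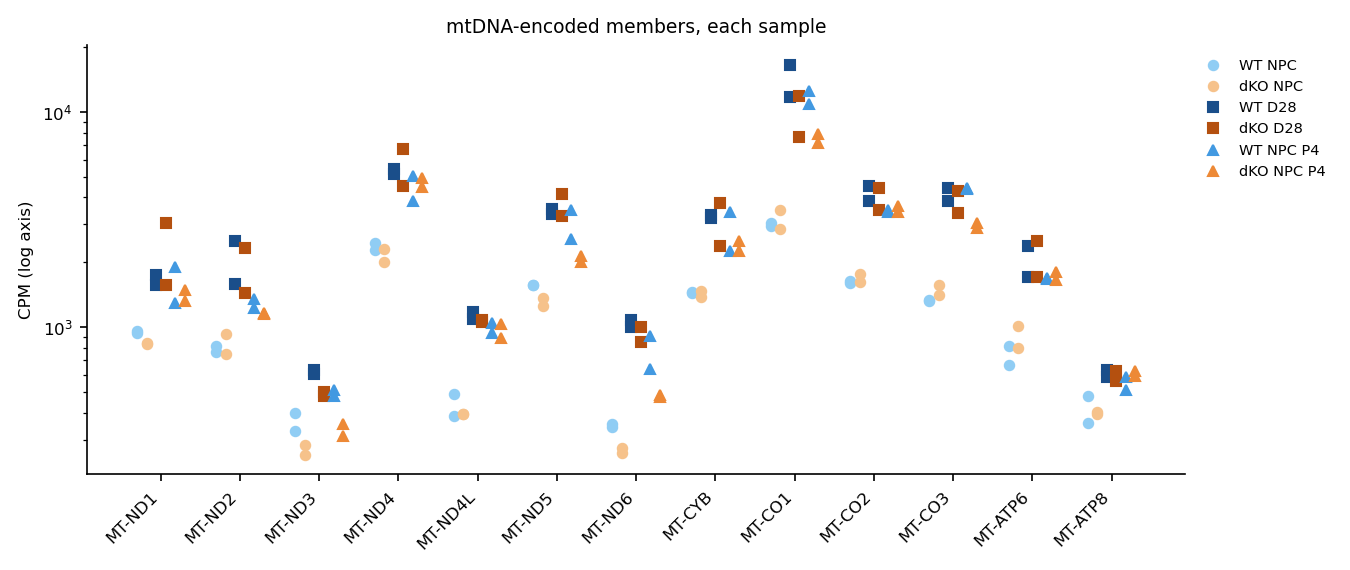
CPM of each mtDNA-encoded member in each of the 12 samples, on a log axis. Circles are early NPCs, squares D28 cells and triangles P4 NPCs, with WT in blues and dKO in oranges. In every gene the 4 circles lie at the bottom, except for MT-ND3, where early WT NPCs (398 and 329 CPM) overlap dKO P4 NPCs (356 and 312 CPM).

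In WT cells the nuclear members that rose with differentiation came from all 5 complexes, beside 23.2% of all genes tested called higher. They were 11 of 32 tested for complex I, 2 of 4 for complex II and 1 of 9 for complex III. Complex IV gave 5 of 11 and complex V 3 of 13. The count for complex III lay below the share over all genes, and that for complex V was close to it. The 2 largest rises, named after their values were seen, were NDUFA9, an accessory subunit of the complex I matrix arm (11.7 and 5.22 to 20.8 and 22.4 CPM, log2 fold change 1.48 ± 0.33, edgeR adjusted p = 0.00157), and ATP5MG, the g subunit of ATP synthase (37.9 and 63.4 to 110 and 111 CPM, 1.06, adjusted p = 0.000336). The 3 falls were ATP5MC2, COX5A, a structural subunit of complex IV, and NDUFA4, named as a complex I subunit but now known to sit in complex IV. All counts by complex here place NDUFA4 in complex I, following its symbol. ATP5MC2, a c-ring subunit, fell from 208 and 238 to 120 and 118 CPM (-0.91 ± 0.13, adjusted p = 4.42e-05) and kept that call in every alternative run. COX5A fell from 87.5 and 86.5 to 66.4 and 62.2 CPM (-0.44, adjusted p = 0.0234) and lost the call without any single one of the 4 WT libraries compared (adjusted p 0.0583 to 0.129). NDUFA4 fell from 132 and 94.7 to 79.9 and 77.1 CPM (-0.50, adjusted p = 0.0135), lost without WT NPC replicate 1 (0.213) or WT-D28 replicate 2 (0.0745) and, with offsets for GC content and length, at 0.126. In dKO cells NDUFS8, an iron-sulfur core subunit of complex I, was the nuclear member that rose (38.3 and 32.5 to 49.7 and 54.8 CPM, 0.57, adjusted p = 0.0338). The 3 that fell were NDUFB6, a membrane-arm subunit of complex I (25.5 and 29 to 17.9 and 12.7 CPM, -0.84, adjusted p = 0.0355), ATP5MK, a small membrane subunit of ATP synthase (-0.71, adjusted p = 0.0334), and NDUFA4 (107 and 122 to 84.8 and 74.7 CPM, -0.52, adjusted p = 0.0343). All 4 nuclear calls in dKO cells were absent with DESeq2, and the 3 falls were lost without dKO NPC replicate 2 (adjusted p 0.262 to 0.42). The 4 proliferation markers summed to 299 and 313 CPM in WT-D28 cells and to 1100 to 1410 CPM in early NPCs and dKO-D28 cells, and with the neuronal markers given above they move with the WT nuclear rise, in which their part was not tested.

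Passage gave the comparison of P4 with early NPCs. In WT cells 11 of 13 mtDNA members rose and 0 fell (median log2 fold change 0.97), and 29 of 69 nuclear members rose and 1 fell (median 0.46), against 19.0% of all genes higher and 19.1% lower. In dKO cells 10 mtDNA members rose and 0 fell (median 0.84), and 8 nuclear members rose and 1 fell (median 0.20), against 8.35% and 11.2%. The 41 calls in WT fell to 23 without WT NPC replicate 2. The 19 calls in dKO fell to 12 without dKO NPC replicate 1, dKO NPC replicate 2 or dKO P4 replicate 1, and were 29 without dKO-D28 replicate 2. These comparisons share the early NPC samples with those of D28. Cell type markers changed as well. In WT NPCs the neuronal sum went from 1210 and 1050 to 4340 and 4880 CPM. The WT astrocyte sum went from 108 and 86.5 to 1840 and 1990 CPM. In dKO NPCs these sums went from 944 and 868 to 718 and 739 CPM and from 38.3 and 24.8 to 28.1 and 35.6 CPM. Their part in the differences at P4 was not tested.

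MT-CO1 again rose most in WT cells, to 10900 and 12500 CPM at P4 (1.97, adjusted p = 5.45e-05), and in dKO cells it reached 7880 and 7150 CPM (1.25, adjusted p = 0.00243). MT-CO3 reached 4380 and 4430 CPM in WT (1.73, adjusted p = 2.68e-08) and 3060 and 2890 CPM in dKO NPCs (1.00, adjusted p = 2.95e-05), so that WT and dKO samples were apart. MT-ND4L had the largest dKO rise, to 893 and 1030 CPM (1.28, adjusted p = 3.41e-06). The mtDNA members not called were MT-ND1 and MT-ND2 in WT and MT-ND1, MT-ND2 and MT-ND3 in dKO NPCs, all with positive fold changes. Without WT NPC replicate 2 the WT calls of MT-ATP8 (adjusted p = 0.319), MT-ND3 (0.112) and MT-CYB (0.0523) were lost, and MT-ATP8 also without WT P4 replicate 2 (0.162). In dKO the call of MT-CYB (adjusted p = 0.0495) was lost without any one of 8 libraries (0.0673 to 0.19), that of MT-ATP6 without dKO NPC replicate 1 (0.0962) or dKO P4 replicate 1 (0.0793), and that of MT-ND5 without dKO NPC replicate 2 (0.0573). Among nuclear members, ATP5MC2 was the 1 that fell in WT, from 208 and 238 to 152 and 151 CPM (-0.57, adjusted p = 0.00379, and 0.0787 without WT NPC replicate 2), and in dKO, from 192 and 189 to 159 and 128 CPM (-0.41, adjusted p = 0.0417), a call lost without any one of 7 libraries (0.0575 to 0.291). The largest nuclear rises, again chosen after their values were seen, were ATP5ME, the e subunit of ATP synthase, in WT (31.3 and 26.1 to 71.8 and 48.5 CPM, 1.084, adjusted p = 0.00569) and NDUFB1, a membrane-arm subunit of complex I, in dKO (18.8 and 18.4 to 36.5 and 37 CPM, 0.98, adjusted p = 0.00164).

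Loss of both demethylases was tested by comparing dKO with WT cells at each stage. In early NPCs edgeR called 0 of 82 members, against 1.78% of all genes higher and 0.989% lower, and DESeq2 also called 0. At an unadjusted p below 0.05, 4 of the 82 members were higher and 3 lower. The share of all genes at that threshold was not computed, so no result is read from these counts. The smallest p belonged to MT-ND3 (398 and 329 CPM in WT, 283 and 255 CPM in dKO, log2 fold change -0.43, adjusted p = 0.0755) and NDUFB6 (10.4 and 14.9 against 25.5 and 29 CPM, 1.05, adjusted p = 0.0939), whose groups did not overlap. The count was 1 without WT NPC replicate 2, 2 without either dKO-D28 replicate and 4 when the compared samples alone were fitted.

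At P4, 5 mtDNA members were lower in dKO than in WT NPCs and 0 higher (median log2 fold change -0.19), and 12 nuclear members were lower and 2 higher (median -0.07), against 24.3% of all genes lower and 25.3% higher. This split depended on the scaling: with library totals alone the median of all genes moved up by 0.16, and the nuclear members divided into 9 higher and 5 lower with a median of 0.09. With offsets for GC content and length the nuclear split was 4 higher and 9 lower. The 5 mtDNA members were MT-ND3, MT-ND5, MT-ND6, MT-CO1 and MT-CO3. MT-ND6 was 636 and 910 CPM in WT against 481 and 472 CPM in dKO NPCs (-0.70, edgeR adjusted p = 0.000526). MT-ND3 was 479 and 511 CPM in WT against 356 and 312 CPM in dKO NPCs (-0.57, adjusted p = 0.000493), MT-CO3 4380 and 4430 against 3060 and 2890 CPM (-0.57, adjusted p = 0.000803), and the groups stood apart for all 3. MT-ND5, at 2570 and 3490 against 2000 and 2130 CPM (adjusted p = 0.00306), lost its call without WT P4 replicate 2 (0.0764), and MT-CO1, at 10900 and 12500 against 7880 and 7150 CPM (-0.64, adjusted p = 0.0259), lost it without any one of the 4 P4 libraries (0.0561 to 0.15), with library totals alone (0.0606) and with offsets for GC content and length (0.0533). Within the same transcripts the neighbours MT-CO2 (3490 and 3410 against 3670 and 3410 CPM) and MT-ATP6 (1680 and 1690 against 1800 and 1650 CPM) overlapped between genotypes. Markers of other cell types moved with these differences. The 8 neuronal markers summed to 4340 and 4880 CPM (WT) against 718 and 739 CPM (dKO), and the 5 astrocyte markers to 1840 and 1990 against 28.1 and 35.6 CPM. The 8 neural crest and mesenchyme markers summed to 154 and 165 against 919 and 932 CPM. The 4 proliferation markers summed to 1240 and 1450 against 813 and 849 CPM. None of these 4 sums overlapped between genotypes, no marker of these lists was at 0 in all samples, and their part in the differences was not tested.

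The largest nuclear difference at P4 was NDUFC2, a membrane-arm subunit of complex I, at 35.4 and 28 CPM in WT against 15 and 12.5 CPM in dKO NPCs (-1.19 ± 0.24, edgeR adjusted p = 0.000623), a call kept in every alternative that tested it (it was too low to be tested in thinned counts). NDUFC2 shares 21.0% of its exonic bases with NDUFC2-KCTD14 and THRSP. NDUFA9 was 11 and 13.6 CPM in WT against 7.73 and 6.62 CPM in dKO NPCs (-0.79, adjusted p = 0.0229), lost with DESeq2 (0.0833), with library totals alone (0.0607) and with offsets for GC content and length (-0.40, 0.212), and without WT P4 replicate 2 (0.176), dKO P4 replicate 1 (0.0589) or dKO P4 replicate 2 (0.128). UQCRB, a complex III subunit (-0.70, adjusted p = 0.000514), and NDUFB9, a membrane-arm subunit of complex I (95.5 and 94 against 64.2 and 54.2 CPM, -0.68, adjusted p = 0.000459), were lower as well, and were named after their values were seen. NDUFS8 was higher, with 48.1 and 46.7 CPM in WT against 74.3 and 64.7 CPM in dKO NPCs (0.55 ± 0.13, adjusted p = 0.00263), but the difference was 0.13 (adjusted p = 0.382) with offsets for GC content and length. ATP5MC3, another c-ring gene, was called higher (0.35, adjusted p = 0.0472) although its groups overlapped, and lost the call without any one of 8 libraries (0.0566 to 0.487), with DESeq2 (0.139) and in thinned counts (0.546). No member of complex II or nuclear member of complex IV was called at P4.

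**Figure D4:**
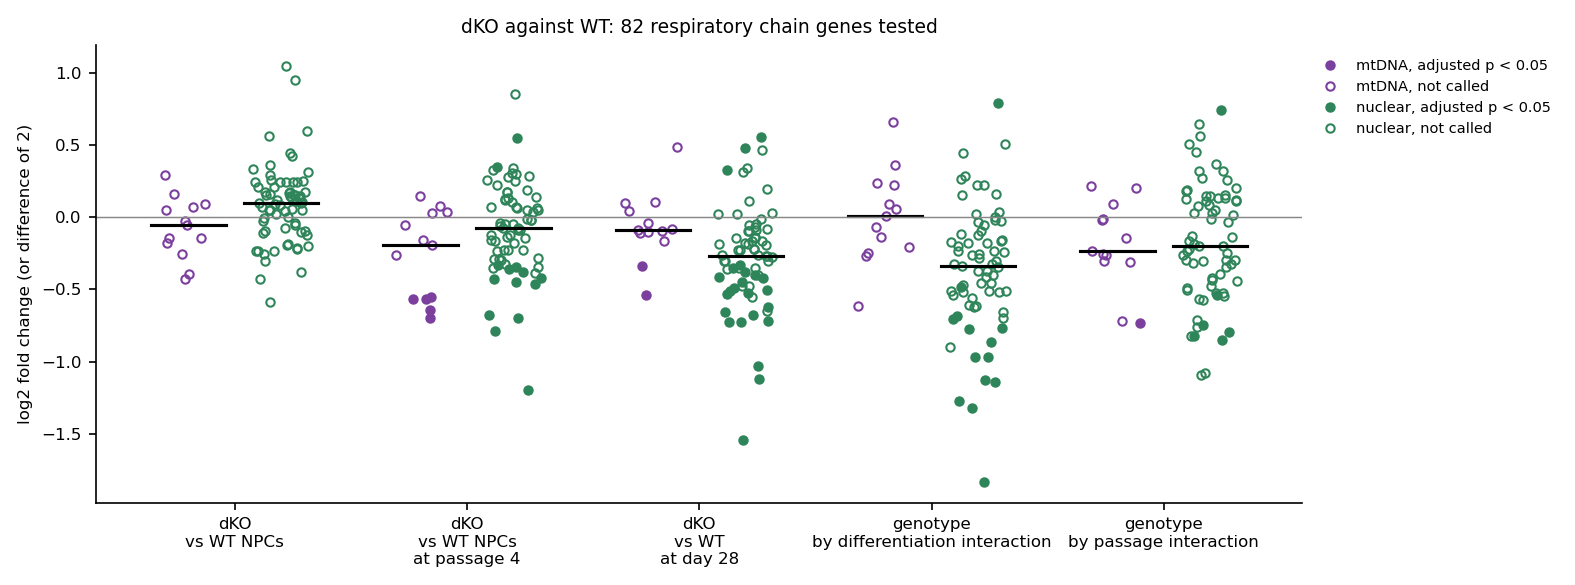
Log2 fold change of dKO against WT at each stage, and the change of that difference with differentiation or passage, for the 82 members tested. Purple points are mtDNA members, green points nuclear members, filled points passed an adjusted p below 0.05 (edgeR) and black lines are medians. At D28 the nuclear median is -0.27 and the mtDNA median -0.08.

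At D28, 21 of 69 nuclear members were lower in dKO than in WT cells and 3 higher, and 58 of the 69 fold changes were negative (median -0.27, against 0.003 over all genes). Of the mtDNA members 2 were lower and 0 higher (median -0.08). Over all genes 26.7% were called lower and 27.5% higher. The lower nuclear members comprised 12 of 32 tested for complex I, 1 of 4 for complex II, 2 of 9 for complex III, 4 of 11 for complex IV and 2 of 13 for complex V. With library totals alone the nuclear split was 14 lower and 5 higher (median -0.17), DESeq2 called 13 lower and 1 higher, and the total of 26 members was 15 without WT-D28 replicate 1. Neuronal markers were also lower in dKO-D28 cells (959 and 530 against 3410 and 3400 CPM) and proliferation markers higher (1100 and 1330 against 299 and 313 CPM), and their part in these differences was not tested.

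NDUFA9 showed the largest difference, 20.8 and 22.4 CPM in WT against 7.27 and 7.53 CPM in dKO cells (log2 fold change -1.54 ± 0.23, edgeR adjusted p = 3.61e-05). NDUFA5, an accessory subunit of the same matrix arm, was 92.4 and 92.9 CPM in WT against 50.4 and 35.1 CPM in dKO cells (-1.12 ± 0.16, adjusted p = 1.4e-05). It was also lower in early dKO NPCs without overlap, though not called (73.1 and 61.1 against 42.8 and 45.3 CPM, edgeR adjusted p = 0.186). At P4 NDUFA5 was called lower in dKO (-0.46, edgeR adjusted p = 0.0245), and its differentiation interaction was not called (edgeR adjusted p = 0.143). ATP5F1E, the epsilon subunit of the ATP synthase head, was 194 and 195 CPM in WT against 105 and 85.5 CPM in dKO cells (-1.03 ± 0.13, adjusted p = 5.77e-06). These 3 exceeded a 2-fold difference, their groups were far apart, and no alternative that tested them removed their calls (NDUFA9 was too low for thinned counts and for a filter at 10 counts in every sample). ATP5F1E has 23.2% of its exonic bases overlapped by TUBB1 on the other strand and 2 pseudogenes, and NDUFA5 has 12 pseudogenes. NDUFA9 shares 10.6% of its exonic bases with other genes on its own strand. Its level per length averaged 3.13 over the 12 samples, against 28.1 for NDUFA5. Part of the reads of these 3 genes may therefore be assigned with less certainty. Smaller differences of the same sign were seen in COX7A2 and COX7B, small subunits of complex IV (-0.73 and -0.53), in UQCRQ and UQCRB of complex III (-0.72 and -0.66) and in SDHB, the iron-sulfur subunit of succinate dehydrogenase (42.8 and 42.1 against 29.3 and 29.5 CPM, -0.53, adjusted p = 0.00499). COX7A2, COX7B, UQCRQ, UQCRB and SDHB were named after their values were seen.

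The 3 nuclear members higher in dKO-D28 cells were ATP5MC2, NDUFB3 and COX5A. ATP5MC2 was 120 and 118 CPM in WT against 156 and 194 CPM in dKO cells (0.56 ± 0.12, edgeR adjusted p = 0.00122), a call kept in every alternative run. NDUFB3, a membrane-arm subunit of complex I (17.6 and 18.2 against 27.6 and 22.6 CPM, 0.48, adjusted p = 0.0455), lost its call without any one of 9 libraries (0.0557 to 0.179), with DESeq2 (0.141) and with offsets for GC content and length (0.0953), and COX5A (66.4 and 62.2 against 80.5 and 80.7 CPM, 0.33, adjusted p = 0.0367) without WT-D28 replicate 1 (0.1) or 2 (0.23), with DESeq2 (0.0896) and in thinned counts (0.14, 0.636). The mtDNA members called lower were MT-ND3, at 629 and 608 CPM in WT against 478 and 501 CPM in dKO cells (-0.34, adjusted p = 0.015, and 0.0846 without WT-D28 replicate 1), and MT-CO1, at 11700 and 16500 against 7670 and 11800 CPM (-0.54, adjusted p = 0.0485). The MT-CO1 groups overlapped, and the call was lost without any one of 8 libraries (0.0639 to 0.296). Neither mtDNA call remained with library totals alone, and that of MT-CO1 was also lost with offsets for GC content and length (0.0544) and in a fit of the compared samples alone (0.171).

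**Figure D5:**
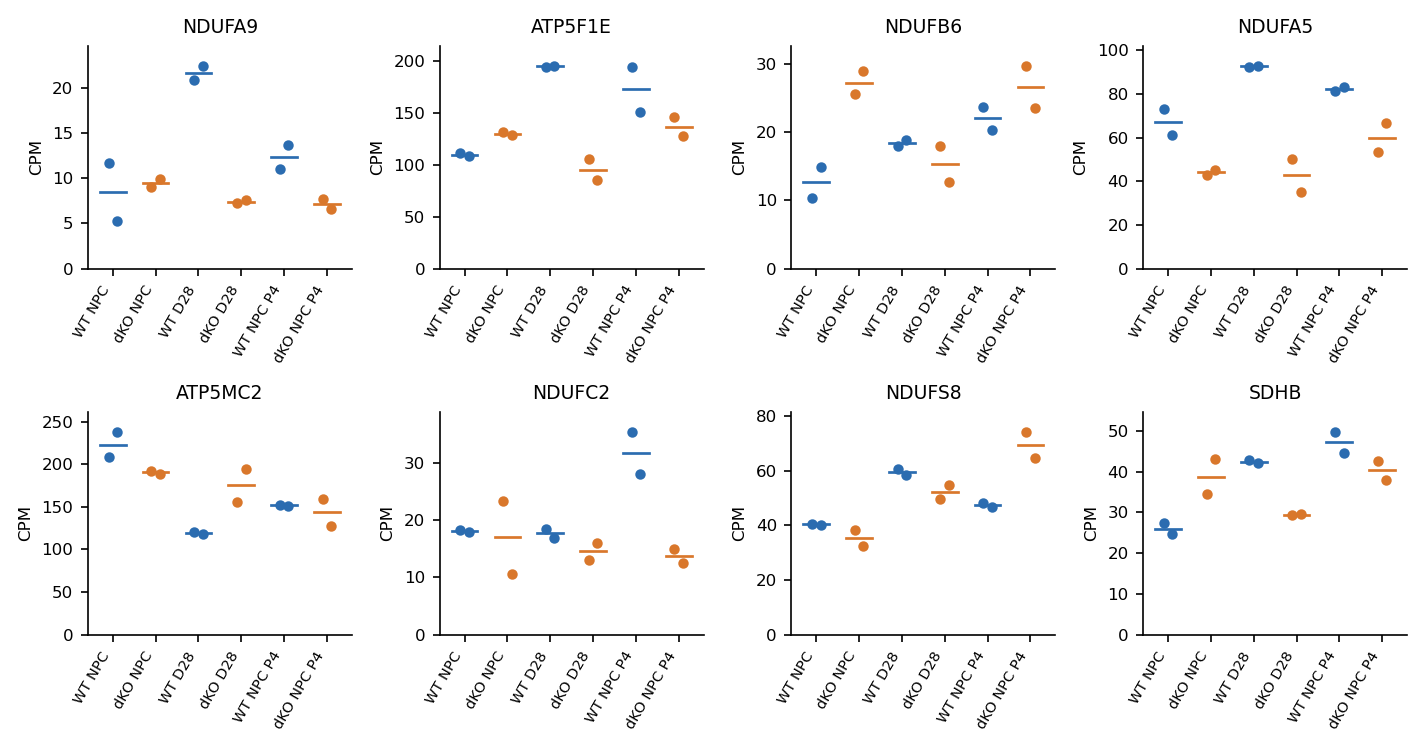
CPM of 8 nuclear members in each sample, WT in blue and dKO in orange, with lines at group means. NDUFA9 and NDUFA5 are highest in WT-D28 cells (20.8 and 22.4, and 92.4 and 92.9 CPM), and ATP5MC2 is highest in early WT NPCs (208 and 238 CPM).

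Whether the genotypes differed in their course was tested as an interaction in the same edgeR fit. For differentiation, the change from early NPCs to D28 differed between dKO and WT for 14 nuclear members, 13 of them less positive or more negative in dKO and 1 more positive, with a nuclear median of -0.34. For mtDNA 0 of 13 members were called (median 0.01), by edgeR or by DESeq2, and 0 had an unadjusted p below 0.05, the smallest adjusted p being 0.149 at MT-CO1. Over all genes 14.4% were called lower and 15.7% higher. NDUFA9 had the largest difference (-1.83 ± 0.48, adjusted p = 0.00831), rising in WT while staying between 7.27 and 9.9 CPM in the 4 dKO samples, and its call was lost without WT NPC replicate 2 (0.0958), the lower of its 2 early WT values. NDUFB6 differed by -1.32 (adjusted p = 0.0129, lost without WT NPC replicate 1 at 0.0566 or dKO NPC replicate 2 at 0.0569), with 10.4 and 14.9 to 17.9 and 18.9 CPM in WT and 25.5 and 29 to 17.9 and 12.7 CPM in dKO cells. ATP5F1E differed by -1.27 ± 0.21 (adjusted p = 0.000241), with 111 and 108 to 194 and 195 CPM in WT and 131 and 128 to 105 and 85.5 CPM in dKO cells. ATP5MC2 differed in the other direction (0.79 ± 0.19, adjusted p = 0.00454), from 208 and 238 to 120 and 118 CPM in WT and from 192 and 189 to 156 and 194 CPM in dKO cells. The calls of ATP5F1E and ATP5MC2 were kept in every alternative. The total of 14 was 8, 6, 9, 7 and 9 without WT NPC replicate 1, WT NPC replicate 2, dKO NPC replicate 1, dKO NPC replicate 2 and WT-D28 replicate 2, and 8 with library totals alone.

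For passage, 1 mtDNA member (MT-CO3) and 6 nuclear members differed between dKO and WT in their change from early to P4 NPCs, 6 of the 7 less positive in dKO, against 12% of all genes lower and 11.1% higher. MT-CO3 differed by -0.73 (edgeR adjusted p = 0.00479), with 1320 and 1340 to 4380 and 4430 CPM in WT and 1410 and 1560 to 3060 and 2890 CPM in dKO NPCs, and kept its call in every alternative. The nuclear median was -0.20. NDUFB9 (-0.85, adjusted p = 0.0106) lost the call without WT NPC replicate 2 (0.0794) or dKO NPC replicate 1 (0.0542). The next 3 calls were less firm. SDHB differed by -0.82 (adjusted p = 0.0318, lost without any one of 6 libraries at 0.0512 to 0.148 and with DESeq2 at 0.0951). ATP5MG differed by -0.79 (adjusted p = 0.0454, lost without any one of 8 at 0.0544 to 0.182 and with DESeq2 at 0.0527). NDUFS8 differed by 0.74 (adjusted p = 0.031, lost without any one of 7 at 0.0512 to 0.123 and with DESeq2 at 0.112). With offsets for GC content and length the NDUFS8 difference was 0.40 (adjusted p = 0.218). SDHB (-0.61, 0.0818) and ATP5MG (-0.80, 0.0652) lost the call as well, as they did with library totals alone (0.0902 and 0.129). The total of 7 was 4 without WT NPC replicate 2, dKO NPC replicate 1, dKO NPC replicate 2 or WT-D28 replicate 1, 3 without WT P4 replicate 1 or dKO P4 replicate 2, and 13 without either dKO-D28 replicate. With library totals alone the median of all genes in this contrast moved by 0.19 and the nuclear median went to -0.003, with 2 nuclear members called higher and 1 lower.

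The 12 nuclear members under the count filter were of 2 kinds. COX4I2, COX6A2, COX6B2, COX7A1, COX7B2 and COX8C are isoforms known from muscle, testis or other specialised tissues, and they stayed at or below 0.805 CPM in all samples, with COX7B2 and COX8C at 0 counts in all 12. NDUFA13 (1.67 to 6.6 CPM), NDUFV2 (0 to 3.64 CPM), NDUFA7 (0 to 2.61 CPM), NDUFA3 and NDUFA6 (at most 0.668 CPM) are ordinary complex I subunits, counted at or near 0. NDUFA13, NDUFV2 and NDUFA7 share 21.0%, 28.4% and 32.5% of their exonic bases with other genes, but NDUFA3 and NDUFA6 share 6.06% and 0%. ATP5ME, which shares 61.3%, averaged 204.8 counts a sample. The overlap setting of the counter is not given in the sources used here. The cause of these low counts was not tested, and they are not read as a measure of low expression. ATP5MGL, a paralog of ATP5MG, was at most 2.61 CPM. NDUFA4L2, a paralog of NDUFA4 that is not a member, was 0 in the 4 early NPC samples, 10.4 and 12.5 CPM in WT-D28, 5.33 and 1.35 CPM in dKO-D28, 2.67 and 2.31 CPM in WT P4 and 0.937 and 0.49 CPM in dKO P4 samples. Against a floor of 3 counts per library, its lowest WT-D28 value was at least 2.65-fold higher than early NPCs.

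The wider machinery of mitochondrial gene expression was described from fixed lists of genes that are not members, beside 23.2% of all genes called higher and 22.9% lower from early WT NPCs to WT-D28 cells, and 4.30% and 5.25% in dKO cells. Of 25 genes of mitochondrial transcription and RNA processing, 0 were called higher and 8 lower at D28 against early WT NPCs (median log2 fold change -0.35), with TRMT10C, a subunit of mitochondrial RNase P, at -1.25 (edgeR adjusted p = 0.000751) and MTERF1, a mitochondrial transcription terminator, at -0.89 (0.0177). Of 18 tested genes of mtDNA replication and maintenance, 2 rose and 9 fell (median -0.47). Those that rose were ENDOG, a mitochondrial nuclease (1.17), and SLC25A4, the ADP/ATP carrier of the inner membrane (0.94), and the largest falls were DNA2, a nuclease-helicase also used in nuclear DNA replication (-2.47), and MGME1, a mitochondrial exonuclease (-1.35). Of 14 tested regulators of mitochondrial biogenesis 0 rose and 6 fell (median -0.44), with MYC at -2.46 (adjusted p = 9.76e-06) and the orphan receptor ESRRG at -4.60 (adjusted p = 2.56e-08). In dKO cells over the same interval the counts were 0 higher and 1 lower for transcription and RNA processing, 0 and 0 for replication and 0 and 3 for the regulators. Of 69 mitochondrial ribosomal protein genes 8 rose and 15 fell in WT and 0 rose and 1 fell in dKO cells. Of 45 assembly factors 4 rose and 4 fell in WT and 0 in dKO cells, and COX20, a complex IV assembly factor, rose in WT (0.94, adjusted p = 1.73e-05).

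Between genotypes the counts of these lists stand beside 27.5% of all genes higher and 26.7% lower in dKO at D28, and 25.3% and 24.3% at P4. In dKO-D28 against WT-D28 cells, 7 of 25 transcription and RNA processing genes were higher and 1 lower (median 0.23), 8 of 18 replication genes higher and 2 lower (median 0.40) and 6 of 14 regulators higher and 1 lower (median 0.32), with MYC at 1.46 (edgeR adjusted p = 0.000214), DNA2 at 1.92 and ELAC2, a nuclear and mitochondrial tRNA processing enzyme, at 0.91 (adjusted p = 1.07e-05). SLC25A4 (-1.35, adjusted p = 3.04e-06) and ENDOG (-0.94, adjusted p = 0.000117) were the 2 replication genes that were lower. At P4, 9 of the 25 transcription and RNA processing genes were higher in dKO and 0 lower (median 0.28), among them POLRMT, the mitochondrial RNA polymerase, at 0.99 (adjusted p = 2.31e-05), while PPARGC1A, a coactivator of mitochondrial biogenesis, was lower (-1.95, adjusted p = 2.34e-05). Of the 11 tested structural and mobile components outside the member list, 3 were lower in dKO cells at D28 and 0 higher, including CYCS, cytochrome c (-0.60, adjusted p = 0.00437), and 3 were lower and 0 higher at P4 (CYCS -0.53, ATP5PO -0.64). Of 45 assembly factors 3 were higher and 4 lower at D28, with COX20 at -1.52 (adjusted p = 1.42e-08). DNA2 and MYC are also known from proliferating cells, and the proliferation markers given above moved with these lists at D28, in which their part was not tested.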

How the data were processed

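Libraries of 12 samples were made from extracted total RNA with the TruSeq RNA sample preparation kit, which does not mark strand. The authors deposited raw counts per gene, made with HISAT2 2.0.4, SAMtools 1.3.1 and HTSeq 0.6.0 on hg38 per the submitters' processing notes. The annotation release, strand setting and overlap mode are not given in the sources used here. Genes were annotated with GENCODE release 44 (98.7% of IDs matched). From the counts, edgeR 4.0.16 (R 4.3.3, limma 3.58.1, TMM, robust quasi-likelihood) was fitted to 6 group means over 13454 genes whose counts averaged 20 or more per sample, with Benjamini-Hochberg adjustment over all of them. Every adjusted p is from edgeR unless DESeq2 (1.42.0) is named. The standard error is the fold change divided by the root of its F statistic. CPM values are counts scaled by each sample's total over the genes tested, multiplied by its TMM factor. The procedure was tested on simulated counts. Members and lists were chosen with earlier results of these data known. Named were all mtDNA members, the 3 largest rises and falls among called members of each comparison, the 3 nuclear members highest per length, tissue isoforms and, per other list, the 2 largest called rises and falls, of which 1 gene is not reported here. Deviations of same-numbered samples (log2 CPM with a prior of 2 counts) correlated from -0.0555 to 0.182 over 15 pairs of groups (mean 0.0177), the highest between WT and dKO P4 NPCs, and since not every pair exceeded 0.1 no pairing was used. Totals ranged from 756942 to 10601172, and intervals or floors cover counting error only. Tables and figures used python 3.11.15, pandas 2.3.3 and matplotlib 3.10.9.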

Additional observations from a re-analysis of the deposited data

Results flagged for a closer look

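The change from early NPCs to D28 differed between dKO and WT cells for 14 members by the edgeR interaction test, against 14.4% of all genes lower and 15.7% higher. The largest differences in log2 fold change, dKO minus WT, were -1.834 for NDUFA9, -1.324 for NDUFB6, -1.272 for ATP5F1E and 0.7914 for ATP5MC2. The change from early to P4 NPCs differed for 7 members, among them -0.8503 for NDUFB9, -0.8212 for SDHB, -0.7929 for ATP5MG, -0.7296 for MT-CO3 and 0.7428 for NDUFS8. Both sets of differences use the early NPC samples, which had the lowest totals, and the calls that a single library removes are given with each gene above.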

How the results depend on the processing

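Of 1748 checks on 80 named results, 1559 stayed on the same side of the threshold, 189 lost the call and 0 reversed. Of 256 checks on counts and ratios, 202 stayed within 1.5 times the reported count or, for a ratio, within 1 SD of the reported difference. In the order early, P4 and D28 genotype, WT D28, dKO D28, WT P4, dKO P4 and the differentiation and passage interactions, an unadjusted p below 0.05 with a fold above 2 gave 1, 1, 3, 12, 11, 10, 5, 5 and 2 members. The share of all genes at this threshold was not computed. Leaving out each library in turn gave 0 to 2, 13 to 26, 15 to 35, 23 to 39, 9 to 19, 23 to 45, 12 to 29, 6 to 19 and 3 to 13. Thinned counts gave 1, 10 and 12 for the genotype comparisons and 8 and 2 for the interactions, with fewer genes tested. A filter at 1 count gave 1 for the early genotype comparison. Fits on the compared samples alone gave 4 (early genotype), 10 (dKO D28), 33 (dKO P4) and 12 (passage interaction). DESeq2 gave 16 at D28 and 4 for the passage interaction, library totals alone 8 and 4 for the interactions, and offsets for GC content and length 4 for the passage interaction. The cause of these shifts was not tested. A replicate block gave counts of 0, 19, 28, 38, 18, 43, 20, 14 and 8 in the same order, but the numbers did not pair the samples over all groups. Replicate 1 of both P4 groups had the higher nuclear share (0.606% and 0.596% against 0.508% and 0.526%). The log2 difference of the mtDNA to nuclear ratio from medians of members was -0.2239 (early genotype), 0.5752 (WT D28), 0.2709 (WT P4) and 0.4391 (dKO P4), and 1.016 for WT D28 without the highest member of each sum. For dKO D28 and the P4 and D28 genotype differences, medians of members stayed within 1 SD of the reported values. Without single libraries the 7 ratios ranged from -0.1327 to -0.0801 (early), -0.405 to 0.0541 (P4), -0.2156 to 0.3257 (D28), 1.146 to 1.44 (WT D28), 1.184 to 1.726 (dKO D28), 0.6872 to 1.146 (WT P4) and 0.765 to 0.9304 (dKO P4). Totals limit the early NPCs most, since 3 counts there are 2.12 to 3.92 CPM.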

Other observations

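Counts of other mitochondrial pathways between genotypes are given beside 27.5% of all genes higher and 26.7% lower in dKO at D28, and 25.3% higher and 24.3% lower at P4. Of 18 genes of the TCA cycle and pyruvate dehydrogenase, 2 were higher and 4 lower in dKO-D28 than in WT-D28 cells (median log2 fold change -0.04), with SUCLG2, a subunit of the GTP-forming succinyl-CoA synthetase, at 1.62 (edgeR adjusted p = 1.78e-07) and IDH3A, a catalytic subunit of NAD-dependent isocitrate dehydrogenase, at -0.79 (adjusted p = 0.000461). SUCLG2 fell in WT cells from early NPCs to D28 (-1.52, adjusted p = 7.5e-06), and its change differed between genotypes (1.75, adjusted p = 6.97e-05).

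Of 17 tested genes of the outer membrane and protein import, 5 were higher and 3 lower in dKO-D28 cells, among them the matrix chaperone HSPD1 (0.64, edgeR adjusted p = 0.000378) and the receptor TOMM20 (-0.44, adjusted p = 0.00156). Of 9 tested uncoupling and antioxidant genes 2 were higher and 3 lower at D28, and 2 higher and 4 lower at P4. UCP2, an inner membrane carrier, was higher in dKO than in WT cells at D28 (1.25, adjusted p = 5.31e-06) and lower at P4 (-0.66, adjusted p = 0.00609). Of 69 mitochondrial ribosomal protein genes 13 were higher and 7 lower in dKO at D28, and 12 higher and 1 lower at P4.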
